A study of Homo sapiens with 12 samples.

Results

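The subunits of oxidative phosphorylation were followed in RNA from NCI-H226, a human mesothelioma cell line that lacks NF2, and from a derivative that grows in the presence of a TEAD inhibitor. A gene was taken as a member if it was protein-coding and its symbol began with NDUFA, NDUFB, NDUFC, NDUFS, NDUFV, UQCR, COX4 to COX8, ATP5 or MT-, or was SDHA, SDHB, SDHC, SDHD, CYC1 or CYCS, with the NDUFAF assembly factors left out. The rule used names only, and it found 105 members among 58302 genes, 13 of them encoded by the mitochondrial genome and 92 by nuclear chromosomes. The 4 groups were NCI-H226, called sensitive here, in GNE-7883 and in the vehicle DMSO, and NCI-H226_CL3, called resistant here, in GNE-7883 and in DMSO, with 3 libraries each. GNE-7883 is an inhibitor of TEAD, the transcription factor family through which YAP and TAZ act, and all groups, the DMSO controls included, share the NF2-null background. The resistant cells are 1 line, selected in a TEAD inhibitor whose concentration was raised stepwise between 0.25 and 3 µM. No source used here gives the dose or the duration of the last incubation. Nothing in the labels ties the 3 libraries of a group to separate cultures, so a p-value refers to the spread between libraries, which may be technical.

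Oxidative phosphorylation makes ATP in the inner mitochondrial membrane. Complexes I and II pass electrons to ubiquinone, complex III passes them to cytochrome c, complex IV passes them to oxygen, and complex V, the ATP synthase, uses the proton gradient that complexes I, III and IV build. Complexes I, III, IV and V mix subunits made from the mitochondrial genome, which is transcribed in the mitochondrion as long polycistronic RNAs that are cut into single messengers, with subunits made in the cytosol from nuclear genes and imported. Complex II and cytochrome c are wholly nuclear.

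The mitochondrial-encoded members were 7 subunits of complex I (MT-ND1 to MT-ND6 and MT-ND4L), MT-CYB of complex III, MT-CO1, MT-CO2 and MT-CO3 of complex IV, and MT-ATP6 and MT-ATP8 of complex V. The nuclear members were 38 of complex I, 4 of complex II, 10 of complex III, 19 of complex IV, 20 of complex V and CYCS. All 13 mitochondrial-encoded members and 83 nuclear members passed the filter on low counts and entered the test. The 9 others held at most 13 reads in any library, namely COX4I2 and COX6A2, which had no read at all, COX7A1, COX7B2, COX8C, NDUFA4L2, ATP5MGL and the readthrough genes NDUFC2-KCTD14 and ATP5MF-PTCD1. Several of these are the tissue-restricted counterparts of common subunits, such as the muscle forms COX6A2 and COX7A1. Among members that were tested, NDUFV2 (9 to 40 reads per library) and NDUFA7 (34 to 63 reads) were thinly covered.

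Libraries held 31878934 to 46962645 counts. Mesothelial markers were present, 8 of 8 with reads, with a summed level of 4041 to 4247 CPM (read counts scaled to library depth with the trimmed mean of M-values, TMM, as in all CPM given here) in sensitive GNE-7883, 2953 to 3224 in sensitive DMSO, 1754 to 1871 in resistant GNE-7883 and 1371 to 1474 in resistant DMSO libraries. Of 7 lung epithelial markers, 6 stayed under 1 CPM in every library although the tissue label names lung epithelium. Of 6 blood markers, 5 stayed under 1 CPM in every library, among them CD3E, which was at 0. The 6 summed to 5.757 to 6.601 CPM in sensitive GNE-7883 and 2.134 to 2.972 in sensitive DMSO. They summed to 0.4638 to 0.9188 CPM in resistant GNE-7883 and 0.3463 to 0.8586 in resistant DMSO. Of 5 muscle markers, 4 stayed under 1 CPM. The 4 endothelial markers summed to 180.1 to 196.0, 48.96 to 63.39, 31.89 to 35.08 and 22.65 to 23.92 CPM in the same order of groups, nearly all of it KDR. In bulk RNA, fewer cells of a kind and less RNA per cell cannot be told apart, and the part that these marker shifts have in the values below was not tested. Sensitive DMSO replicate 2 stood apart from the other two libraries of its group. Its nuclear members summed to 9766 CPM, against 8146 and 7972 CPM in replicates 1 and 3, so counts that rest on it are also given without it.

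Per kilobase, mitochondrial-encoded members were among the higher ones. On the authors' RPKM scale the median of the 13 was 608 in sensitive GNE-7883, 336 in sensitive DMSO, 367 in resistant GNE-7883 and 350 in resistant DMSO, and the median of the 92 nuclear members was 30.0, 32.9, 28.8 and 28.2. MT-ATP8 was the lowest and MT-CO2 the highest mitochondrial-encoded member in each group, at 214 and 2000 RPKM in sensitive GNE-7883 and 109 and 1240 RPKM in sensitive DMSO. The nuclear member with the highest RPKM was ATP5F1B, the catalytic beta subunit of the ATP synthase, at 861 RPKM in sensitive GNE-7883, 905 in sensitive DMSO, 666 in resistant GNE-7883 and 709 in resistant DMSO. In each group 82 nuclear members had a mean above 1 RPKM.

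Some mitochondrial genes share bases, so that a read over the shared stretch belongs to both, and these stretches are shown because they limit how far neighbours can be read apart. GENCODE release 29 on GRCh38 places 46 shared bases between MT-ATP8 and MT-ATP6 (chrM:8527-8572), 7 between MT-ND4L and MT-ND4 (chrM:10760-10766) and 1 between MT-ATP6 and MT-CO3 (chrM:9207). Each is printed on the plus strand with 12 flanking bases on either side, the shared bases in capitals.
MT-ATP8 and MT-ATP6, chrM:8515-8584: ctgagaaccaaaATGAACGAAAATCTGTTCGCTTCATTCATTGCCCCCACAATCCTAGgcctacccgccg
MT-ND4L and MT-ND4, chrM:10748-10778: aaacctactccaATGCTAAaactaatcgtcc
MT-ATP6 and MT-CO3, chrM:9195-9219: cgacaacacataAtgacccaccaat
The library kit does not mark strand, so reads of MT-ND6 (chrM:14149-14673), the member on the minus strand, cannot be told from antisense reads of the long plus-strand RNA. MT-CO1 has a near-identical nuclear copy, the pseudogene MTCO1P12, which held 118 to 580 reads per library against 50023 to 94607 for MT-CO1.

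In sensitive cells, GNE-7883 raised all 13 mitochondrial-encoded messengers, and no sensitive GNE-7883 library overlapped a sensitive DMSO library for any of them. The share of all genes without such overlap was not counted, here or below. A lack of overlap therefore cannot be read as particular to the members. MT-CYB (chrM:14747-15887), the cytochrome b of complex III, had 776.7, 921.7 and 817.3 CPM in sensitive GNE-7883 libraries, against 370.1, 366.0 and 443.5 CPM in sensitive DMSO libraries. The 3 treated libraries lay well above the 3 controls, and the log2 fold change was 1.09 with an SE of 0.091 (edgeR adjusted p = 4.54e-08). MT-CO1 (chrM:5904-7445), the subunit of complex IV that carries its oxygen-reducing centre, had 2474, 2760 and 2495 CPM in sensitive GNE-7883, against 1213, 1189 and 1413 CPM in sensitive DMSO. Again the groups were far apart, with a log2 fold change of 1.02 (SE 0.091, edgeR adjusted p = 1.06e-07). MT-CO3, a core subunit beside it, rose by 0.97 (SE 0.072, edgeR adjusted p = 1.26e-08). MT-ND4, a proton-pumping subunit of complex I, had the smallest change, with 1797, 2062 and 1817 CPM in sensitive GNE-7883, against 1156, 1133 and 1466 CPM in sensitive DMSO. Its groups did not overlap either, and the log2 fold change was 0.60 (SE 0.10, edgeR adjusted p = 0.000144).

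The other mitochondrial-encoded members fell between these. The log2 fold changes were 0.69 for MT-CO2, 0.70 for MT-ND2, 0.77 for MT-ND4L, 0.78 for MT-ND3, 0.78 for MT-ND6, 0.97 for MT-ATP8, 0.98 for MT-ND5, 0.996 for MT-ND1 and 1.03 for MT-ATP6. The median over the 13 was 0.97, against 0.02 over all genes tested, where 58.1% of genes were called and 29.8% were called higher. The 13 messengers are cut from shared polycistronic RNAs, so here and below they do not count as 13 independent observations. The ribosomal RNA MT-RNR2, which the rule leaves out, had 58 to 247 reads per library and changed by 1.43 on the log2 scale (edgeR adjusted p = 7.06e-06), and MTCO1P12 by 1.43 (adjusted p = 5.88e-08). How far reads of that copy enter the MT-CO1 values was not tested.

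**Figure D1:**
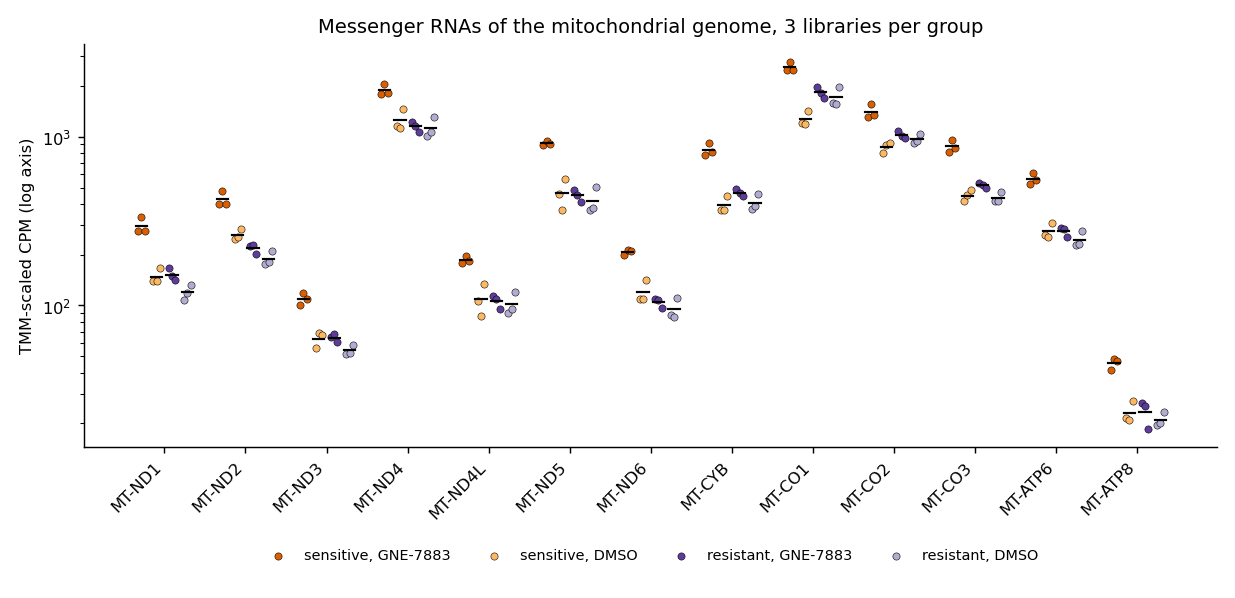
TMM-scaled CPM (log axis) of the 13 mitochondrial-encoded messengers, each point a library and each line the mean of 3, for sensitive GNE-7883, sensitive DMSO, resistant GNE-7883 and resistant DMSO. For each gene the 3 sensitive GNE-7883 libraries sit above the other 9, for example 776.7 to 921.7 CPM for MT-CYB, where sensitive DMSO holds 366.0 to 443.5.

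Nuclear members moved in both directions. In sensitive cells GNE-7883 raised 8 of the 83 tested and lowered 23, with a median log2 fold change of -0.09. That is 37.3% in all, against 58.1% among all genes, of which 29.8% were called higher and 28.4% lower. The lowered members were thus near the share of all genes, and the raised ones below it. The genes that rose and fell were spread over the complexes: 5 rose and 10 fell of 37 in complex I, 2 and 2 of 4 in complex II, 0 and 1 of 10 in complex III, 1 and 2 of 13 in complex IV, 0 and 7 of 18 in complex V, and CYCS fell. This split rests on how transcript length and 1 library are treated, with 25 higher, 21 lower and a median of 0.01 without sensitive DMSO replicate 2, and 31 higher, 16 lower and a median of 0.07 with an offset for gene length, so the sign of the median turns under both. All genes had 5463 higher, 5140 lower and a median of 0.03 of 18358 tested without that library. With the offset they had 6039 higher, 4861 lower and a median of 0.07 of 18035 tested. The nuclear medians in these fits were thus near those of all genes. The 13 mitochondrial-encoded members stayed higher in both fits.

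The subunits of complex II, succinate dehydrogenase, moved in opposite directions. SDHC (chr1:161314257-161375340) and SDHD (chr11:112086773-112120013), which anchor the enzyme in the membrane, rose, and SDHA (chr5:218241-256700), the flavoprotein, and SDHB (chr1:17018722-17054170), the iron-sulphur subunit, which together form the catalytic part, fell. SDHD had 35.32, 33.75 and 31.6 CPM in sensitive GNE-7883, against 24.85, 24.87 and 22.08 CPM in sensitive DMSO, and SDHC had 55.06, 57.42 and 52.73 CPM against 40.03, 41.25 and 40.49 CPM. Both anchors were higher in every treated library, with log2 fold changes of 0.49 (SE 0.076, edgeR adjusted p = 4.76e-05) and 0.44 (SE 0.058, adjusted p = 8.31e-06). SDHB had 56.68, 55.31 and 54.88 CPM in sensitive GNE-7883, against 75.85, 88.21 and 71.49 CPM in sensitive DMSO. SDHA had 45.58, 44.68 and 47.19 CPM against 50.96, 55.52 and 49.82 CPM. Both catalytic subunits were lower in every treated library, with log2 fold changes of -0.50 (SE 0.071, edgeR adjusted p = 1.92e-05) and -0.19 (adjusted p = 0.0169). Without sensitive DMSO replicate 2 the values were 0.51, 0.45, -0.41 and -0.14 for SDHD, SDHC, SDHB and SDHA, all called. With the length offset SDHD (0.61) and SDHB (-0.29) were still called, while SDHC (0.13, adjusted p = 0.267) and SDHA (-0.07, adjusted p = 0.23) were not.

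CYCS (chr7:25120091-25125361), cytochrome c, the mobile carrier between complexes III and IV, had 67.08, 70.62 and 67.79 CPM in sensitive GNE-7883, against 90.75, 104.4 and 93.43 CPM in sensitive DMSO. All treated libraries were below all controls, and the log2 fold change was -0.49 (SE 0.062, edgeR adjusted p = 4.96e-06). CYC1, the cytochrome c1 of complex III that hands electrons to it, fell by 0.35 (adjusted p = 0.00113). The other nuclear members with the largest falls were COX6B2, a form of the complex IV subunit COX6B known from testis, at -0.67 (3.696 CPM in sensitive GNE-7883 and 5.876 CPM in sensitive DMSO), NDUFB8 at -0.63, and ATP5MC1 at -0.54. ATP5MC1 is 1 of 3 genes for the membrane ring subunit c of the ATP synthase. The others, ATP5MC2 (0.16, adjusted p = 0.105) and ATP5MC3 (-0.06, adjusted p = 0.481), were not called. The other large rises were NDUFB4 (0.39), NDUFB5 (0.34) and NDUFA1 (0.32), accessory subunits of the membrane arm of complex I.

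Further nuclear subunits listed beside these had mixed results in sensitive cells. NDUFV1, which binds NADH, changed by -0.27 (edgeR adjusted p = 0.0228), COX5A by -0.26 (0.00713) and ATP5F1A, the alpha subunit of the ATP synthase, by -0.18 (0.0107), and these were called. NDUFS1 (-0.12, adjusted p = 0.0687), UQCRC1 (-0.09, 0.333), UQCRFS1, the Rieske iron-sulphur protein (-0.17, 0.212), COX4I1 (0.09, 0.357) and ATP5F1B (-0.07, 0.3) were not. The ubiquitous complex IV subunits COX6A1, COX6B1, COX7A2, COX7B and COX8A were not called either, at -0.12 to 0.13. UQCRH (0.09) and UQCRHL (-0.13), which are near-identical and may trade reads, were not called.

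The promoters of SDHD, which rose, and of SDHB and CYCS, which fell, are shown as examples. Each holds the core of the binding motif of NRF1, a nuclear factor known for driving respiratory genes. They were chosen after values and matches had been seen, and the counts over all members with a promoter follow below. They run from 250 bases before to 50 after the RefSeq start (GRCh38.p14), 5′ to 3′ on the gene's strand, with each match to GCATGCGC on either strand in capitals, which in SDHD is 1 match on each strand that overlap.
SDHD, chr11:112086623-112086922, plus strand: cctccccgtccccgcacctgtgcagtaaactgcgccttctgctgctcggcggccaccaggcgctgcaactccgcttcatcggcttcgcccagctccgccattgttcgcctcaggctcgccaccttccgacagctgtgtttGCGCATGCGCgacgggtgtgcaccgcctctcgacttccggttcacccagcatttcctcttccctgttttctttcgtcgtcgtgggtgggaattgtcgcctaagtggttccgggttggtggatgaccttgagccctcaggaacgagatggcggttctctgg
SDHB, chr1:17053983-17054282, minus strand: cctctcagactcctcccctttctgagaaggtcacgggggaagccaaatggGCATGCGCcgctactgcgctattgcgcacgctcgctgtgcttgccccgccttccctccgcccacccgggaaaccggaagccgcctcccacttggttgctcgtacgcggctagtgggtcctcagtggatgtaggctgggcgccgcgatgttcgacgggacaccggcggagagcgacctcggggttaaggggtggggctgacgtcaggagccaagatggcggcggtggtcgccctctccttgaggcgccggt
CYCS, chr7:25125211-25125510, minus strand: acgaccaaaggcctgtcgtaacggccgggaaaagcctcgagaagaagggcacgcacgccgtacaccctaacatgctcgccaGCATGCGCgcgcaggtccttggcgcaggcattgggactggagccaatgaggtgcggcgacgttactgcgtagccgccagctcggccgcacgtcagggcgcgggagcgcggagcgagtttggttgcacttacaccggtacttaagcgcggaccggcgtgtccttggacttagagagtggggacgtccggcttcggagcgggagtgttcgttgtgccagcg

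RefSeq promoters matched 72 of the 92 nuclear members, and each motif was searched on both strands. The NRF1 core GCATGCGC stood in 14 of the 72 (19.4%), against 4.26% of 15284 promoters of protein-coding genes. In sensitive cells it stood in 2 of 5 promoters of members called higher in GNE-7883 and in 3 of 20 of those called lower. Between the lines in DMSO it stood in 2 of 2 of those higher in resistant cells and in 7 of 40 of those lower. Whether NRF1 has a part in these changes was not tested. CCGGAAG, the motif of ETS factors such as GABPA, stood in 20 (27.8%, against 14.4%), and AAGATGGC, the motif of YY1, in 11 (15.3%, against 3.98%). TCAAGGTCA, the ESRRA motif, stood in 1 (1.39%, against 0.242%), and the TEAD motif CATTCC in 6 (8.33%, against 11.6%). A match is a string of letters in this window and not a measured binding site.

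**Figure D2:**
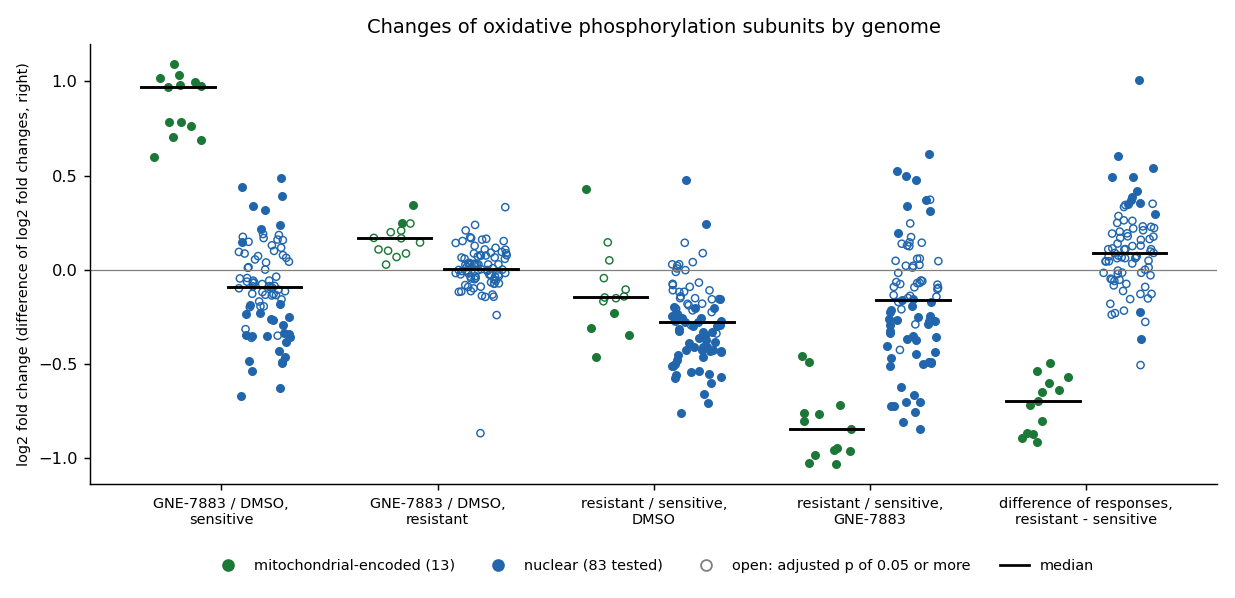
Log2 fold changes of the 13 mitochondrial-encoded and 83 tested nuclear members in each comparison, and at the right the difference of the GNE-7883 responses, with filled points for adjusted p under 0.05 and lines for medians. In sensitive cells the mitochondrial-encoded points lie at 0.60 to 1.09 with a median of 0.97, and the nuclear points at -0.67 to 0.49 with a median of -0.09.

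The balance between the genomes was read from summed levels in each library. Mitochondrial-encoded members took 1.006% ± 0.0732 of all counts in sensitive GNE-7883 (SD, n = 3 here and below), 0.5555% ± 0.0569 in sensitive DMSO, 0.6558% ± 0.0398 in resistant GNE-7883 and 0.6038% ± 0.0697 in resistant DMSO. Nuclear members took 0.8017% ± 0.0203, 0.8414% ± 0.102, 0.6977% ± 0.01 and 0.7008% ± 0.0147 in the same groups. The ratio of summed CPM, mitochondrial-encoded over nuclear, was 1.222, 1.328 and 1.214 in sensitive GNE-7883, against 0.6576, 0.5464 and 0.8042 in sensitive DMSO. It was 1.005, 0.9344 and 0.8811 in resistant GNE-7883, against 0.7863, 0.8036 and 0.9998 in resistant DMSO. Treated and control libraries were apart in sensitive cells, with a log2 difference of 0.92 (1.896-fold), and overlapped in resistant cells, with a log2 difference of 0.13 (1.094-fold). Resistant over sensitive, the log2 difference was -0.42 in GNE-7883 (0.749-fold) with no overlap, and 0.38 in DMSO (1.298-fold), where the highest sensitive library lay above the lowest resistant one. Taken from median levels in place of sums, these differences were -0.88 in GNE-7883 and 0.11 in DMSO, and without sensitive DMSO replicate 2 the DMSO difference was 0.24. Leaving out 1 library at a time moved the difference in resistant cells between 0.067, without resistant DMSO replicate 1, and 0.24, without resistant DMSO replicate 3. These ratios are descriptions and carry no test.

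The shift in sensitive cells held within each mixed complex. For complex I the ratio averaged 2.199 in sensitive GNE-7883, against 1.272 in sensitive DMSO. It was 0.8044 against 0.3616 for complex III, 2.989 against 1.667 for complex IV and 0.1749 against 0.08107 for complex V. In resistant cells the ratios were 1.368 ± 0.0914 in GNE-7883 against 1.3 ± 0.212 in DMSO for complex I, and 0.5508 ± 0.0256 against 0.4846 ± 0.0666 for complex III. They were 2.648 ± 0.143 against 2.498 ± 0.335 for complex IV and 0.1081 ± 0.00895 against 0.09362 ± 0.0109 for complex V. The mean was higher in GNE-7883 than in DMSO in all of these, which come from the same libraries. The gap was wider in sensitive than in resistant cells for each complex. In resistant cells it was smaller than the DMSO SD for complexes I, III and IV and larger for complex V.

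**Figure D3:**
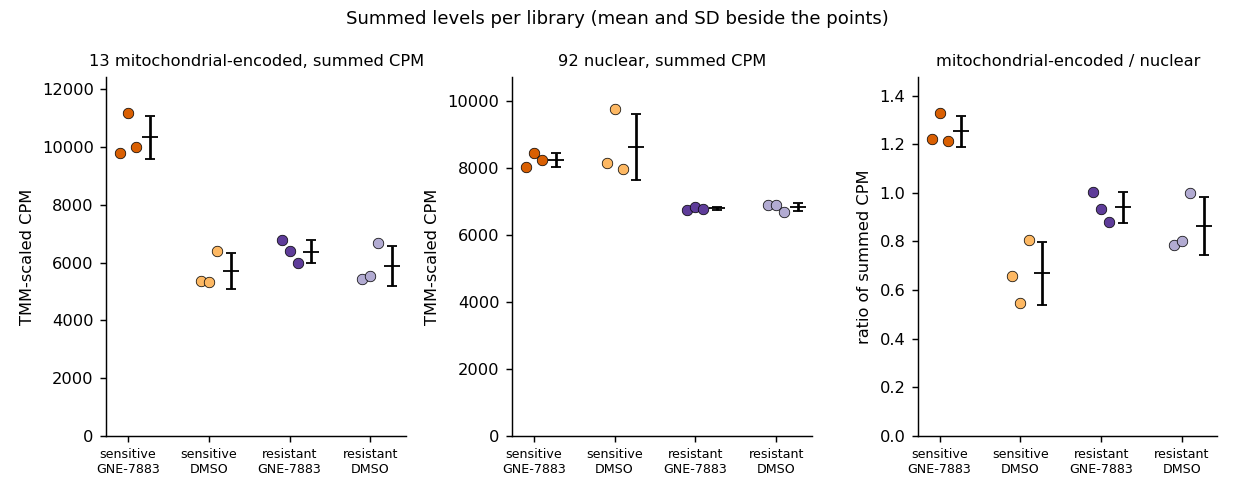
Summed TMM-scaled CPM of the 13 mitochondrial-encoded members, of the 92 nuclear members, and the ratio of both, with a point per library and the mean and SD beside it. The mitochondrial sum reaches 9797 to 11200 CPM in sensitive GNE-7883, against 5336 to 6412 CPM in sensitive DMSO, while the nuclear sums of these groups overlap.

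In resistant cells GNE-7883 changed few members. Of the 13 mitochondrial-encoded members 2 rose and none fell, where 9.22% of all genes were called, 5.25% higher and 3.97% lower. MT-ND1 (chrM:3307-4262), a complex I subunit at the ubiquinone site, had 166.9, 148.8 and 141.1 CPM in resistant GNE-7883, against 108.1, 119.2 and 132.2 CPM in resistant DMSO. The groups did not overlap, and the log2 fold change was 0.35 (SE 0.097, edgeR adjusted p = 0.0367). MT-CO3 had 534.3, 515.9 and 498.6 CPM in resistant GNE-7883, against 415.9, 416.7 and 470.8 CPM in resistant DMSO. It was likewise higher in every treated library, with a log2 fold change of 0.25 (SE 0.072, edgeR adjusted p = 0.0401). The number called fell to 0 without resistant GNE-7883 replicate 1 or 2 or without resistant DMSO replicate 1 or 2, was 1 without replicate 3 of sensitive or of resistant GNE-7883, and was 3 without sensitive DMSO replicate 1 or 2. The log2 fold changes of all 13 were positive, between 0.03 and 0.35, with a median of 0.17. Both called genes also rose in sensitive cells. All 13 rose there, so any member called higher here would have overlapped, and the overlap carries no further information.

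Of the 83 nuclear members, edgeR called 0 in resistant cells, with a median log2 fold change of 0.0023. At an unadjusted p under 0.05, 4 were higher and 3 lower, and DESeq2 also called 0. Of all 18035 genes, 2105 were higher and 1872 lower at that unadjusted p, a larger share, and DESeq2 called 1157 higher and 825 lower. Without sensitive DMSO replicate 2, which enters this comparison only through the shared spread, scaling and filter, 3 were called higher (NDUFB4, COX5B and UQCR11) and 2 lower (SDHB and ATP5MG). All genes had 1649 higher and 1411 lower of 18358 without that library, against 947 and 716 of 18035 with it. The calls below are from the fit of all 12 libraries. The subunits of succinate dehydrogenase, which had changed in sensitive cells, stood at 0.21 for SDHD (edgeR adjusted p = 0.117), 0.07 for SDHC (0.549), -0.14 for SDHB (0.25) and 0.02 for SDHA (0.874), and CYCS at -0.12 (0.279).

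The resistant line held lower levels of many nuclear members in DMSO. Of 83 tested, 2 were higher and 50 lower than in sensitive DMSO, 62.7% in all, where 48.7% of all genes were called and 24.4% were called lower. The median log2 fold change was -0.28, against -0.0020 over all genes tested. Members called lower were 19 of 37 in complex I, 3 of 4 in complex II, 6 of 10 in complex III, 10 of 13 in complex IV and 12 of 18 in complex V. Without sensitive DMSO replicate 2, the library with the highest nuclear sum, 4 were higher and 43 lower, with a median of -0.16. Scaling by total counts alone gave 3 higher and 40 lower. All genes had 4633 higher and 4426 lower of 18358 without that library, and 5359 and 3654 of 18035 with total counts alone.

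The largest falls came from several complexes. COX7A2 (chr6:75237675-75250323), a small complex IV subunit, had 68.2, 65.66 and 67.07 CPM in resistant DMSO, against 106.2, 136.0 and 98.52 CPM in sensitive DMSO. COX5B (chr2:97646040-97648383), a zinc-binding complex IV subunit, had 41.89, 43.58 and 39.77 CPM in resistant DMSO, against 60.03, 79.37 and 65.36 CPM in sensitive DMSO. In both genes every resistant library was below every sensitive one, with replicate 2 the highest of the sensitive DMSO libraries, and the log2 fold changes were -0.76 (SE 0.092, edgeR adjusted p = 4.19e-06) and -0.71 (SE 0.085, adjusted p = 4.02e-06). UQCRC1, a core subunit of complex III, was at -0.66, ATP5MC3 at -0.60 and NDUFB5 at -0.58. ATP5F1A (-0.55), ATP5F1B (-0.43), COX4I1 (-0.28), COX6B1 (-0.45), SDHA (-0.27), SDHC (-0.33), SDHD (-0.48), CYC1 (-0.33) and NDUFS1 (-0.20) were also called lower. COX6A1 (-0.0027, adjusted p = 0.982) and UQCRFS1 (-0.08, adjusted p = 0.608) were not called.

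The nuclear members called higher in resistant DMSO were NDUFA6 and CYCS. NDUFA6 (chr22:42085525-42090955), an accessory subunit of complex I, had 36.09, 35.95 and 36.49 CPM in resistant DMSO, against 25.6, 29.17 and 23.09 CPM in sensitive DMSO. The groups were clearly apart, and the log2 fold change was 0.48 (SE 0.076, edgeR adjusted p = 7.86e-05). CYCS had 115.5, 110.2 and 115.4 CPM in resistant DMSO, against 90.75, 104.4 and 93.43 CPM in sensitive DMSO. Its groups did not overlap either, with a log2 fold change of 0.24 (SE 0.061, edgeR adjusted p = 0.00389), a call that an offset for GC content ended (adjusted p = 0.0674). The promoters of NDUFA6, higher here, and COX5B, lower here, also hold the core and were likewise chosen after values and matches had been seen. They are printed as those of the earlier genes, with the NRF1 core in capitals.
NDUFA6, chr22:42090723-42091022, minus strand: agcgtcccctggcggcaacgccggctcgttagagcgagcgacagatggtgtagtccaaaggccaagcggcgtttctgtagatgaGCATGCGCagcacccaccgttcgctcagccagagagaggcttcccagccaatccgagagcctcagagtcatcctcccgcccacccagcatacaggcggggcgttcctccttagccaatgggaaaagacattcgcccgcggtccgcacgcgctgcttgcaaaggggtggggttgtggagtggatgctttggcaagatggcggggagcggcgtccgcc
COX5B, chr2:97645812-97646111, plus strand: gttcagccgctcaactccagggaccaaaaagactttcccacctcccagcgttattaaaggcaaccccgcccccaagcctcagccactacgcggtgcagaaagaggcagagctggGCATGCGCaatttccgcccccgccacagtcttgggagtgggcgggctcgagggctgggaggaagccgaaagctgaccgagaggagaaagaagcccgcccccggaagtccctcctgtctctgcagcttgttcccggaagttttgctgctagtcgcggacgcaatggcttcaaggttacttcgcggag

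**Figure D4:**
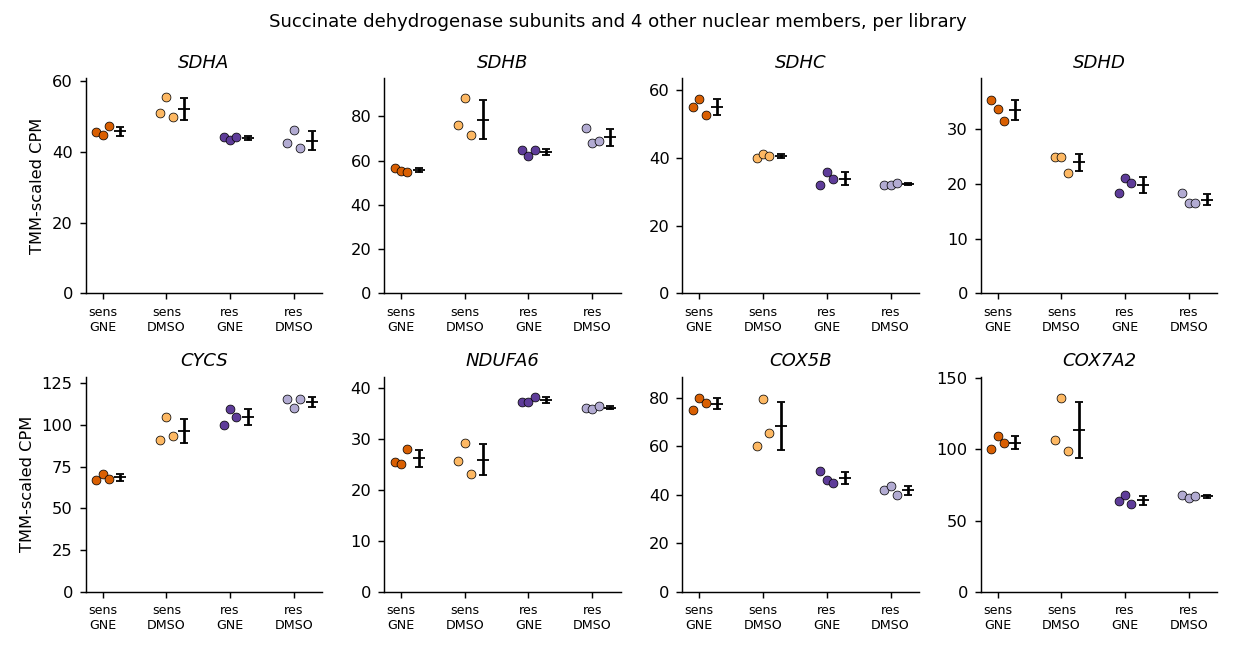
TMM-scaled CPM per library of the 4 succinate dehydrogenase subunits and of CYCS, NDUFA6, COX5B and COX7A2, with the mean and SD of 3 libraries beside the points. SDHC and SDHD are highest in sensitive GNE-7883 while SDHB and CYCS are lowest there, and NDUFA6 is higher, COX5B and COX7A2 lower, in all 6 resistant than in all 6 sensitive libraries.

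Between the untreated lines 1 mitochondrial-encoded member was higher and 4 were lower of 13 in resistant DMSO, where 48.7% of all genes were called, 24.2% higher and 24.4% lower, so the number called was not above the background. MT-CO1 had 1584, 1563 and 1982 CPM in resistant DMSO, against 1213, 1189 and 1413 CPM in sensitive DMSO. All resistant libraries were above all sensitive ones, and the log2 fold change was 0.43 (SE 0.090, edgeR adjusted p = 0.000985). MTCO1P12, the near-identical copy, changed by 1.67 in this comparison (adjusted p = 9.56e-09). MT-ND2, another proton-pumping subunit of complex I, had 177.2, 182.1 and 209.9 CPM in resistant DMSO, against 246.9, 254.2 and 285.4 CPM in sensitive DMSO, a log2 fold change of -0.47 (SE 0.085, edgeR adjusted p = 0.000263) with no overlap. The others called lower were MT-ND6 (-0.35, adjusted p = 0.0114), MT-ND1 (-0.31, 0.0158) and MT-ND3 (-0.23, 0.033), all complex I subunits. The number called was 2 without sensitive DMSO replicate 3 or resistant DMSO replicate 1, 3 without resistant DMSO replicate 2, and 7 without sensitive DMSO replicate 2 or resistant DMSO replicate 3. With the length offset 2 were higher and 1 lower. The share of mitochondrial-encoded reads that fell on MT-CO1 was 28.5% to 29.1% in resistant GNE-7883 libraries, against 24.6% to 25.2% in sensitive GNE-7883, and 28.2% to 29.6% in resistant DMSO, against at most 22.7% in sensitive DMSO.

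In GNE-7883 the lines differed in every mitochondrial-encoded member. All 13 were lower in resistant GNE-7883 than in sensitive GNE-7883 with no overlap, where 61.9% of all genes were called and 31.1% were called lower. Log2 fold changes ran from -0.46 for MT-CO2 to -1.03 for MT-ATP6, with a median of -0.84. MT-ATP6, the membrane subunit of the ATP synthase that faces the rotating ring, had 288.3, 282.2 and 254.9 CPM in resistant GNE-7883, against 527.7, 605.4 and 557.0 CPM in sensitive GNE-7883, so that every resistant library was near the 262.7, 254.7 and 307.8 CPM of sensitive DMSO. Members differed in this. MT-CO1, with 1976, 1821 and 1703 CPM in resistant GNE-7883 against 1213, 1189 and 1413 CPM in sensitive DMSO, lay wholly above, as did MT-CO2, MT-CO3 and MT-CYB. MT-ND2 and MT-ND6 lay wholly below sensitive DMSO, and the remaining members overlapped it.

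Of the nuclear members, 8 were higher and 39 lower in resistant GNE-7883, with a median of -0.16. That is 56.6% in all, below the 61.9% among all genes, of which 30.7% were called higher and 31.1% lower. Scaling by total counts alone gave 13 higher and 26 lower, and leaving out sensitive DMSO replicate 2 gave 15 and 44. All genes had 6319 higher and 4917 lower of 18035 with total counts alone, and 6093 and 6088 of 18358 without that library. Of the 50 members lower in the resistant line in DMSO, 34 (68.0%) were also lower in GNE-7883, which is 87.2% of the 39, and these comparisons share no library. The same overlap was not counted over all genes, so these shares cannot be read as particular to the subunits. CYCS and NDUFA6 were higher in both comparisons. CYCS had 99.84, 109.5 and 104.9 CPM in resistant GNE-7883, against 67.08, 70.62 and 67.79 CPM in sensitive GNE-7883, and NDUFA6 had 37.29, 37.32 and 38.33 CPM against 25.53, 25.0 and 28.08 CPM. In both the lines were apart, with log2 fold changes of 0.61 (SE 0.062, edgeR adjusted p = 2.97e-07) and 0.52 (SE 0.076, adjusted p = 1.99e-05). The largest falls were NDUFV2 (-0.85, adjusted p = 0.0226, from few reads), NDUFB5 (-0.81), SDHD (-0.76), COX5B (-0.73) and COX7C (-0.72), and the other large rises were COX6B2 (0.50), ATP5MF (0.47) and NDUFA12 (0.37).

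The difference of the responses themselves, resistant minus sensitive, was tested in the same model. It was negative and called for all 13 mitochondrial-encoded members, the largest adjusted p being 0.00761, where 35.7% of all genes were called and 16.7% were called lower. The median difference was -0.70, and the single values ran from -0.50 for MT-ND2 to -0.92 for MT-CO1. Among nuclear members 11 differences were positive and called and 2 were negative and called, fewer than the share among all genes, with a median of 0.09. The median was -0.02 without sensitive DMSO replicate 2 and -0.07 with the length offset, where the median over all genes tested was -0.01 and -0.07. The positive ones were COX6B2 (1.01), ATP5MC1 (0.60), NDUFS8 (0.54), NDUFA3 (0.49), NDUFB8 (0.49), ATP5IF1 (0.42), ATP5MF (0.39), CYCS (0.37), SDHB (0.35), NDUFA12 (0.35) and COX5A (0.30). Their own changes in sensitive cells, from libraries that also enter this difference, ran from -0.26 for COX5A to -0.67 for COX6B2. COX6B2, at low level, had 5.93, 4.213 and 5.429 CPM in resistant GNE-7883 against 4.168, 4.415 and 3.741 CPM in resistant DMSO, and 3.949, 4.197 and 2.943 CPM in sensitive GNE-7883 against 6.04, 5.707 and 5.882 CPM in sensitive DMSO. The treated libraries overlapped the controls in resistant cells and lay wholly below them in sensitive cells. The negative differences were SDHC (-0.37, edgeR adjusted p = 0.00244) and COX7A2L (-0.22, adjusted p = 0.0443). The nuclear split was 10 positive and 9 negative without sensitive DMSO replicate 2, 17 and 1 without sensitive DMSO replicate 3, and 10 and 13 with the length offset, where SDHC was no longer called (-0.08, adjusted p = 0.707). In the same order, all genes had 3788 positive and 3323 negative of 18358, 3529 and 2969 of 18561, and 3274 and 3774 of 18035.

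Genes that build and serve the complexes were followed through lists of other mitochondrial genes, read against the same shares of all genes. In sensitive cells more genes fell than rose in GNE-7883 in each list but the biogenesis regulators. Among all genes tested, 28.4% were called lower and 29.8% higher in this comparison. Of 82 mitochondrial ribosomal proteins, which translate the mitochondrial-encoded messengers, 0 rose and 59 fell by edgeR, with a median log2 fold change of -0.39, and MRPL3 was at -0.94. DESeq2 gave the same counts, and at an unadjusted p under 0.05 none was higher and 62 were lower. Of all 18035 genes, DESeq2 called 5160 higher and 5041 lower, and 5774 were higher and 5462 lower at that unadjusted edgeR p. Of 26 genes for protein import and inner membrane translocation 1 rose and 21 fell, among them TOMM40, the channel of the outer membrane, at -1.09. Of 19 genes for mitochondrial DNA replication and maintenance 2 rose and 15 fell, with the nuclease and helicase DNA2 at -1.32 and the thymidine kinase TK2 at 0.81. Of 27 genes for mitochondrial transcription and RNA processing 2 rose and 16 fell. TFB1M, which methylates mitochondrial ribosomal RNA, was at -0.83, PNPT1, which degrades mitochondrial RNA, at -0.83, and LRPPRC, which stabilises mitochondrial messengers, at 0.17 (edgeR adjusted p = 0.034). Of 18 tricarboxylic acid cycle enzymes 2 rose and 12 fell, with FH at -0.62. Of 58 assembly factors 5 rose and 25 fell, with the complex I factor NDUFAF2 at -1.36 and HIGD2A at 0.69.

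Regulators of mitochondrial biogenesis were divided, 5 higher and 4 lower of 18 tested. PPARGC1B, a coactivator related to PGC-1 alpha, averaged 55.7 ± 2.8 CPM in sensitive GNE-7883 and 22.29 ± 4.85 CPM in sensitive DMSO, a log2 fold change of 1.32 (edgeR adjusted p = 5.68e-08). PPRC1, the third member of that family, was at -0.95 and the transcription factor MYC at -0.77. PPARGC1A, which encodes PGC-1 alpha itself, was at a low level, with 1.015 ± 0.089 CPM in sensitive GNE-7883 and 0.584 ± 0.0989 CPM in sensitive DMSO (0.78, edgeR adjusted p = 0.00859). It had 0.06497 ± 0.043 CPM in resistant GNE-7883 and 0.1725 ± 0.0119 CPM in resistant DMSO. Resistant over sensitive, its log2 fold change was -1.76 in DMSO (edgeR adjusted p = 0.000204) and -3.95 in GNE-7883 (6.25e-08). The difference of responses was -2.19 (0.00457). PPARGC1B averaged 18.89 ± 0.597 CPM in resistant GNE-7883 and 16.15 ± 0.187 CPM in resistant DMSO, and its difference of responses was -1.10 (edgeR adjusted p = 7.12e-05).

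In resistant cells 0 of 82 ribosomal proteins rose and 2 fell in GNE-7883, with 0 and 4 of the 27 transcription and RNA processing genes, 0 and 2 of the 58 assembly factors, 1 and 2 of the 26 import genes, 1 and 0 of the 19 replication genes, 0 and 1 of the 18 biogenesis regulators and 0 and 0 of the 18 cycle enzymes. For these enzymes DESeq2 also called 0, and 0 were higher and 3 lower at an unadjusted p under 0.05, where 2105 of all 18035 genes were higher and 1872 lower. Among all genes, 5.25% were called higher and 3.97% lower in resistant cells, and 24.2% and 24.4% between the lines in DMSO. The shares were 30.7% and 31.1% between the lines in GNE-7883, and 19% and 16.7% in the difference of responses. Between the lines in DMSO, 5 ribosomal proteins were higher and 43 lower, 8 assembly factors higher and 24 lower, and 2 import genes higher and 11 lower, beside the 2 and 50 of the nuclear subunits. The replication genes ran the other way, with 8 higher and 2 lower. Of the cycle enzymes 4 were higher and 9 lower, with OGDH at -0.95, of the RNA processing genes 6 and 8, with MTERF3 at 0.63, and of the biogenesis regulators 6 and 3. Between the lines in GNE-7883 the counts, higher then lower, were 28 and 15 for ribosomal proteins, 20 and 17 for assembly factors, 12 and 3 for import, 15 and 2 for replication, 14 and 5 for RNA processing, 7 and 7 for cycle enzymes and 6 and 6 for biogenesis regulators. The difference of responses was called positive for 34 and negative for 0 ribosomal proteins (39 and 0 by DESeq2, 44 and 0 unadjusted), and positive for 14 and negative for 2 assembly factors, 17 and 1 import genes, 9 and 2 replication genes, 13 and 1 RNA processing genes, 8 and 1 cycle enzymes and 4 and 5 biogenesis regulators. Of all 18035 genes, DESeq2 called 3478 positive and 2884 negative, and 4160 and 3934 were so at the unadjusted p. Without sensitive DMSO replicate 2, a fit of the lists chosen after seeing the data, the sensitive-cell counts were 1 and 49 for ribosomal proteins, 11 and 20 for assembly factors and 2 and 21 for import, and the resistant-cell counts were 0 and 10 for ribosomal proteins, 1 and 7 for import and 0 and 7 for RNA processing. In that fit all genes had 5463 higher and 5140 lower of 18358 in sensitive cells. In resistant cells they had 1649 higher and 1411 lower. The fit of all 12 libraries had 947 and 716 of 18035 there, so calls in resistant cells rose among all genes too. With the length offset, also chosen after seeing the data for these lists, the sensitive-cell counts were 5 and 48 for ribosomal proteins and 11 and 18 for assembly factors, where all genes had 6039 higher and 4861 lower of 18035. Between the lines in GNE-7883 that offset turned the split of assembly factors, to 16 higher and 23 lower, and gave 24 and 22 ribosomal proteins. In the difference of responses it gave 24 positive and 3 negative ribosomal proteins. With this offset all genes had 5544 higher and 6079 lower of 18035 between the lines in GNE-7883. In the difference of responses they had 3274 positive and 3774 negative.

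**Figure D5:**
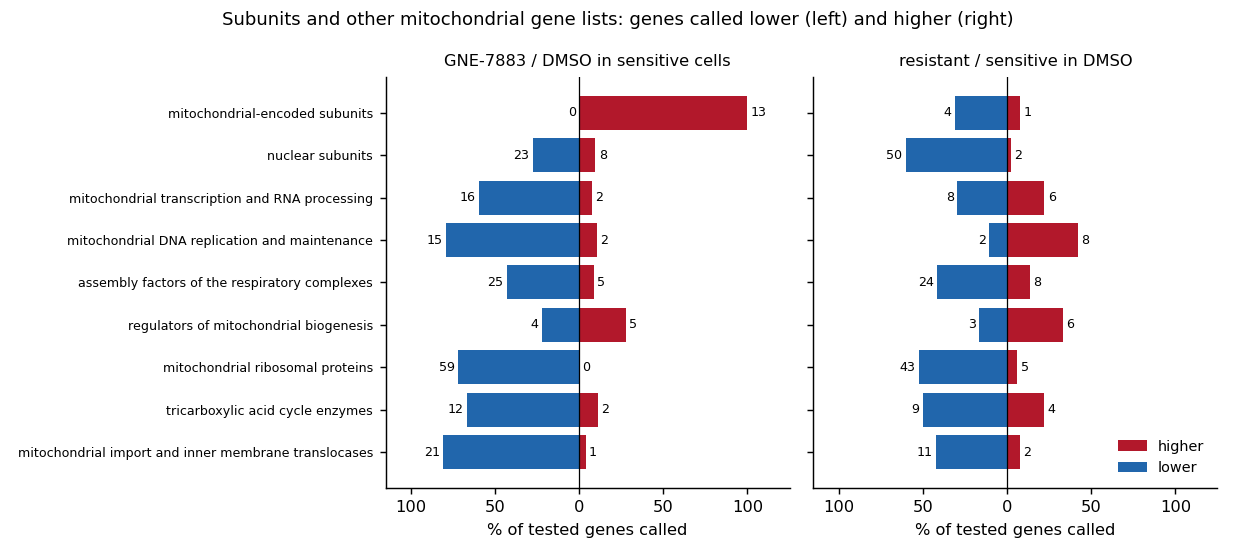
Share of tested genes called lower (left of 0) and higher (right of 0), in percent, for the mitochondrial-encoded and nuclear subunits and 7 other mitochondrial gene lists, with the numbers of genes beside the bars. In sensitive cells in GNE-7883 the mitochondrial-encoded subunits show 13 higher and 0 lower, and the ribosomal proteins 0 higher and 59 lower.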

How the data were processed

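RNA of 12 libraries was read as single-end 50-base reads, per the labels' protocols, from a kit that does not mark strand. The authors deposited whole-number read counts for 58302 Ensembl genes without normalization, and separately their RPKM values per gene and library. The submitters' processing notes name GSNAP 2013-10-10, GRCh38.p10 and limma without their roles. Which program counted reads, and with which annotation, is not stated in the labels or headers. Names, biotypes, positions and GC content came from GENCODE release 29, and promoters from RefSeq.

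The counts were tested with edgeR 4.0.16 (R 4.3.3): TMM scaling, filterByExpr (18035 genes kept), quasi-likelihood fit of 1 mean per group over 12 libraries with 8 residual degrees of freedom, and Benjamini-Hochberg adjustment over all genes in each of 5 comparisons. A gene counts as called at an adjusted p under 0.05, and errors of log2 fold changes are standard errors. The script was tested on simulated data. Named members are all mitochondrial-encoded ones, the 5 called nuclear ones with the largest change in each direction, and sets of further nuclear subunits and paralogs. The ratio of genomes is a sum of CPM with no test. Total counts of 31878934 to 46962645 limit what low members can show. Alternatives were DESeq2 1.42.0, other scalings and filters, length and GC offsets, a replicate block and leaving out each library. The members and lists were chosen with earlier results of these data known.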

Additional observations from a re-analysis of the deposited data

Results flagged for a closer look

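The GNE-7883 response differed between the lines by the test of the difference itself (edgeR, resistant minus sensitive) in 13 of 13 mitochondrial-encoded members and in 13 of 83 nuclear members tested, where 35.7% of all genes were called, so the nuclear share lay below that of all genes. The differences on the log2 scale were -0.92 for MT-CO1, -0.89 for MT-CYB, -0.87 for MT-ND5, -0.87 for MT-ATP6, -0.81 for MT-ATP8, -0.72 for MT-CO3, -0.70 for MT-ND4L, -0.65 for MT-ND1, -0.64 for MT-ND6, -0.60 for MT-CO2, -0.57 for MT-ND4, -0.54 for MT-ND3 and -0.50 for MT-ND2. Among the nuclear members named by the rule they were 1.01 for COX6B2, 0.60 for ATP5MC1, 0.54 for NDUFS8, 0.49 for NDUFA3, 0.49 for NDUFB8, -0.37 for SDHC and -0.22 for COX7A2L. Groups of 3 libraries are too small for a test of single outlying libraries.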

How the results depend on the processing

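The 13 mitochondrial-encoded members were called higher in sensitive cells, and lower in resistant GNE-7883 and in the difference of responses, under every alternative run. With an offset for gene length, 47 nuclear members were called in sensitive cells (31 higher, 16 lower), 3 in resistant cells (1 with a GC offset), and 23 in the difference of responses (10 positive, 13 negative), and 3 mitochondrial-encoded members differed between the lines in DMSO. With that length offset all genes had 6039 higher and 4861 lower of 18035 in sensitive cells, and 1148 and 1217 in resistant cells. In the difference of responses 3274 were positive and 3774 negative. With no filter on low counts, 5 mitochondrial-encoded members were called in resistant cells, 8 between the lines in DMSO, and the nuclear splits were 13 and 34 between the lines in GNE-7883 and 18 and 1 in the difference of responses. Of 35350 genes then tested, 1147 were higher and 624 lower in resistant cells, and 4315 and 4596 between the lines in DMSO. Between the lines in GNE-7883 they were 6044 and 5674, and in the difference of responses 3894 and 2708. A filter of 5 CPM gave 11 and 4 for that difference, and total counts without TMM gave 2 higher and 3 lower mitochondrial-encoded members between the lines in DMSO. The length offset reversed COX6A1, to 0.1572 in sensitive cells and 0.1582 between the lines in DMSO, and COX8A, to 0.1727 in sensitive cells. The cause was not tested.

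Leaving out 1 library gave 28 to 46 nuclear members called in sensitive cells, 0 to 5 in resistant cells, 47 to 57 between the lines in DMSO, 34 to 59 in GNE-7883 and 10 to 19 in the difference of responses, the highest of these without sensitive DMSO replicate 2 except in DMSO. For mitochondrial-encoded members leaving out 1 library gave 0 to 3 in resistant cells, and 2 to 7 between the lines in DMSO. Calls among all genes moved as well. In resistant cells 549 were higher and 312 lower of 18324 without resistant DMSO replicate 1, and 1649 and 1411 of 18358 without sensitive DMSO replicate 2. The log2 difference of the ratio, taken from median levels in place of sums, was 1.144 in sensitive cells, 0.111 between the lines in DMSO and -0.8843 in GNE-7883. With the replicate block, 8 nuclear members were higher and 23 lower in sensitive cells, 2 and 49 between the lines in DMSO, 8 and 40 in GNE-7883 and 11 and 1 in the difference of responses, and the mitochondrial-encoded counts did not change. Same-numbered libraries deviated together in some pairs of groups and not in others, with correlations from -0.658 to 0.617. Deviations from a mean of 3 libraries are tied to each other, so these values cannot decide whether the numbers pair the libraries. Few reads limit what NDUFV2, NDUFA7 and the 9 untested members can show.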
